A study of Homo sapiens with 20 samples.

Results

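The genes described here are 39 genes of DNA replication and S phase, listed by name. They serve origin licensing, origin firing and the replicative helicase, strand synthesis, the sliding clamp and ligation, nucleotide supply and uracil handling, chromatin assembly and histone messages, and checkpoint and repair. Each gene was matched by its symbol in the platform annotation and was represented by 1 probe set, the single-symbol one that was brightest on average across the 20 arrays. Of the 39 listed genes 38 were found in this way, among 11963 genes in all, and UHRF1 was not analysed here. MCM subunits, cyclins and E2F factors were left out of the list, except E2F8. Of the 38 probe sets, 3 (ORC6, DUT and CHAF1A) have the name ending _x_at, for probes that may also bind unrelated sequence. Another 12 end in _s_at, for probes that match more than 1 transcript, namely those of CDC6, CDT1, GMNN, CDC45, GINS2, GINS3, FEN1, RRM1, UNG, SLBP, DTL and BRCA1.

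The cells were SUM44, an estrogen receptor positive human line established from an invasive lobular breast carcinoma, so every value comes from a single line in culture. All groups shared a hormone deprivation of 3 days in IMEM with charcoal-stripped serum, given as 2% in the series text and 10% in the sample text. The 5 groups of 4 arrays were deprived cells at 0 h (baseline), cells given vehicle (0.01% ethanol) for 3 h or 24 h, and cells given 1 nM estradiol (E2) for 3 h or 24 h. Groups and replicate letters A to D follow the sample titles. For the 4 arrays titled 24hr E2 the treatment field reads baseline, against their titles and descriptions, and replicates are described as biological in the series text. Values are log2 expression from Affymetrix arrays, so a difference of 1 is a doubling.

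DNA is copied once per cell cycle. In G1 the origin recognition complex, CDC6 and CDT1 load the MCM helicase onto origins. At the start of S phase, kinases recruit CDC45 and the GINS complex, which turn the loaded MCM ring into a moving helicase, and polymerases then copy both strands with the help of the PCNA clamp. Many of these genes are targets of the E2F transcription factors, which are released when cyclin-dependent kinases phosphorylate the retinoblastoma protein. Estradiol is known to drive estrogen receptor positive breast cancer cells from G1 into S phase.

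Because these genes are often described as E2F targets, the 250 bases before each start listed for a gene in a table of RefSeq promoters (GRCh38.p14) were searched on both strands for 4 octamers of the E2F type, TTTGGCGC, TTTCCCGC, TTTCGCGC and TTTGCCGC. Entries matched 37 of the 38 measured genes with 51 starts in all, since 11 genes had several, and E2F8 had none. At least 1 octamer was found in 13 of the 37 genes (35.1%), against 5.18% of the 9563 genes on the array with an entry. By start, it was found before 13 of 51 (25.5%), against 2.79% of all 35116 promoters. Of the 13 genes, 9 have the octamer before the outer end of the annotated gene, and in CDC7, GMNN, UNG and DUT it precedes a start that lies 261, 476, 575 and 1102 bases inside the gene. The 3 stretches below are shown because they belong to the members with the smallest p at 24 h among those with an octamer. GMNN ranks among them too, but its stretch lies inside the annotated gene and is not shown. Each has 120 bases ending just before the start, is read 5′ to 3′ on the gene's strand, and has the octamer in capitals.
DTL, chr1:212035628-212035747, plus strand: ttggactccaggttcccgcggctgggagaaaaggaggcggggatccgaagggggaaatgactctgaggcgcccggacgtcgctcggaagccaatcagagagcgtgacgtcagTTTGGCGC
PCNA, chr20:5126623-5126742, minus strand: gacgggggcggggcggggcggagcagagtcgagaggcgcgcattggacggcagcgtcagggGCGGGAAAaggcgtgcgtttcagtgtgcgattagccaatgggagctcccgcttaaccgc
GINS2, chr16:85688955-85689074, minus strand: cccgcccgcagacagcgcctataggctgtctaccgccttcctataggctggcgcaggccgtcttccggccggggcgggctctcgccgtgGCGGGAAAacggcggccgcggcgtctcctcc
The octamer ends at the last base before the start in DTL and lies further upstream in PCNA and GINS2, where it is read as GCGGGAAA. CCAAT, on either strand, was found in 21 of 37 members (56.8%) and in 42.4% of the array genes. The full palindromic estrogen response element was found in 0 of 37 members and in 0.0314% of the array genes. A match is a match of letters and not a measured binding site. The median E2 difference at 24 h was 0.60 in the 13 members with an octamer and 0.74 in the 24 without, and these were not tested against each other.

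Correlations between arrays of a group ran from 0.998 to 0.999, and precision is limited by how few arrays a group has. Of the luminal epithelial markers 8 of 8 were measured, with means from 11.28 (FOXA1) to 13.91 (KRT18). Of 8 stromal markers 6 lay under 6.11 on the log2 scale, the lower quartile of all genes (25%) and the limit of what is called dim here, and so did 4 of the 6 measured immune and endothelial markers. The summed linear level of the stromal list was 626 to 661 in vehicle and 674 to 740 with E2 at 24 h, with no overlap. Its brightest gene was COL1A1, with a mean of 8.49. Of the stromal genes 2 were called higher, 1 was lower and 5 were not called at 24 h. Their median difference was 0.06, with a range from -0.17 (COL3A1) to 0.24 (DCN). The median level of the immune and endothelial list was 5.38 to 5.56 in vehicle and 5.74 to 5.87 with E2 at 24 h. The summed level of that list overlapped (301 to 335 and 308 to 325). By gene, 1 was called higher (LYZ, 0.88 ± 0.089, adjusted p = 1.1e-07), 1 was lower and 4 were not called. The median difference of the list was -0.01, and its lowest was -0.42 (PECAM1). The summed luminal level was 72802 to 74758 in vehicle and 76981 to 78790 with E2 at 24 h, and at 3 h it was 75154 to 75511 in vehicle and 67041 to 68507 with E2. By gene, 4 luminal markers were called higher and 4 lower at 24 h. At 3 h 3 were higher, 3 lower and 2 not called. The 3 h median was -0.01, with a range from -2.07 (GATA3) to 0.59 (KRT19). The part of these lists in the results was not tested. Among the arrays, baseline array A stood lowest for the replication genes, with a median deviation of -0.28 from each gene's mean, against -0.12 to -0.18 in the other 3 baseline arrays.

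At 24 h E2 raised nearly the whole set. Of the 38 measured genes 37 were higher with E2 than with vehicle at an adjusted p under 0.05, 1 (RFC5) was lower and 0 were not called, in a limma fit over all 11963 genes. Over all genes 21.5% were called higher, 24.2% lower and 45.7% in either direction. The members' median difference was 0.69, which is 1.62-fold, and the median of all genes was 0.02. Differences ran from -0.17 (RFC5, whose other probe sets rose) to 1.57 (DTL). At least 1.5-fold increases were seen in 21 members, against 3.02% of all genes. In 36 members every E2 array lay above every vehicle array, which held for 18.8% of all genes, and in 0 members every E2 array lay below, which held for 22.5%. Of the 38 members 30 lay above the 95th percentile of all genes and 35 above the 90th. In bulk RNA a larger share of cells in S phase and more of these messages per cell cannot be told apart.

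At 3 h the set moved little as a whole and in both directions. Of the 38 genes 9 were higher with E2, 7 were lower and 22 were not called, and over all genes 13.5% were called higher and 17.6% lower. The median difference was 0.03, with a range from -0.78 (E2F8) to 0.58 (DTL). E2 and vehicle arrays were fully separated, higher in 10 members and lower in 7, against 13.4% and 17.2% of all genes. At least 1.5-fold increases were called in 0 members and 2.73% of all genes, and decreases of that size in E2F8 and UNG and in 2.58% of all genes. With each array centred on its median, 12 members were higher and 7 lower, and of all 11963 genes 1853 were higher and 1965 lower. The ACTB control, the signal of its 3′ probe set minus that of its 5′ probe set, was 0.291 to 0.339 in the vehicle arrays at 3 h and 0.343 to 0.419 in the E2 arrays. The GAPDH control was -0.122 to -0.104 and -0.153 to -0.129, so neither control overlapped between these groups, and their part in the 3 h results was not tested.

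The difference between the 24 h and the 3 h effect was itself tested. It was above 0 in 35 members, below 0 in 0 and not called in RFC5, CLSPN and CDT1, while 16.5% of all genes were called above and 17.8% below 0. The median of this difference was 0.66 over the members and 0.02 over all genes, and a difference of at least 1.5-fold was called in 21 members against 2.93% of all genes. Called patterns over the 2 times, on the probe set used for each gene, were of 4 kinds. The genes higher at both times were 9, namely DTL, GINS3, CDC6, CDC25A, CDT1, ORC6, FEN1, RFC2 and TOPBP1. Lower at 3 h and higher at 24 h were 6, namely E2F8, UNG, PRIM1, GMNN, POLA1 and SLBP. Higher at 24 h and not called at 3 h were 22. RFC5 was lower at both times on the probe set used and higher at both on its other probe sets.

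**Figure D1:**
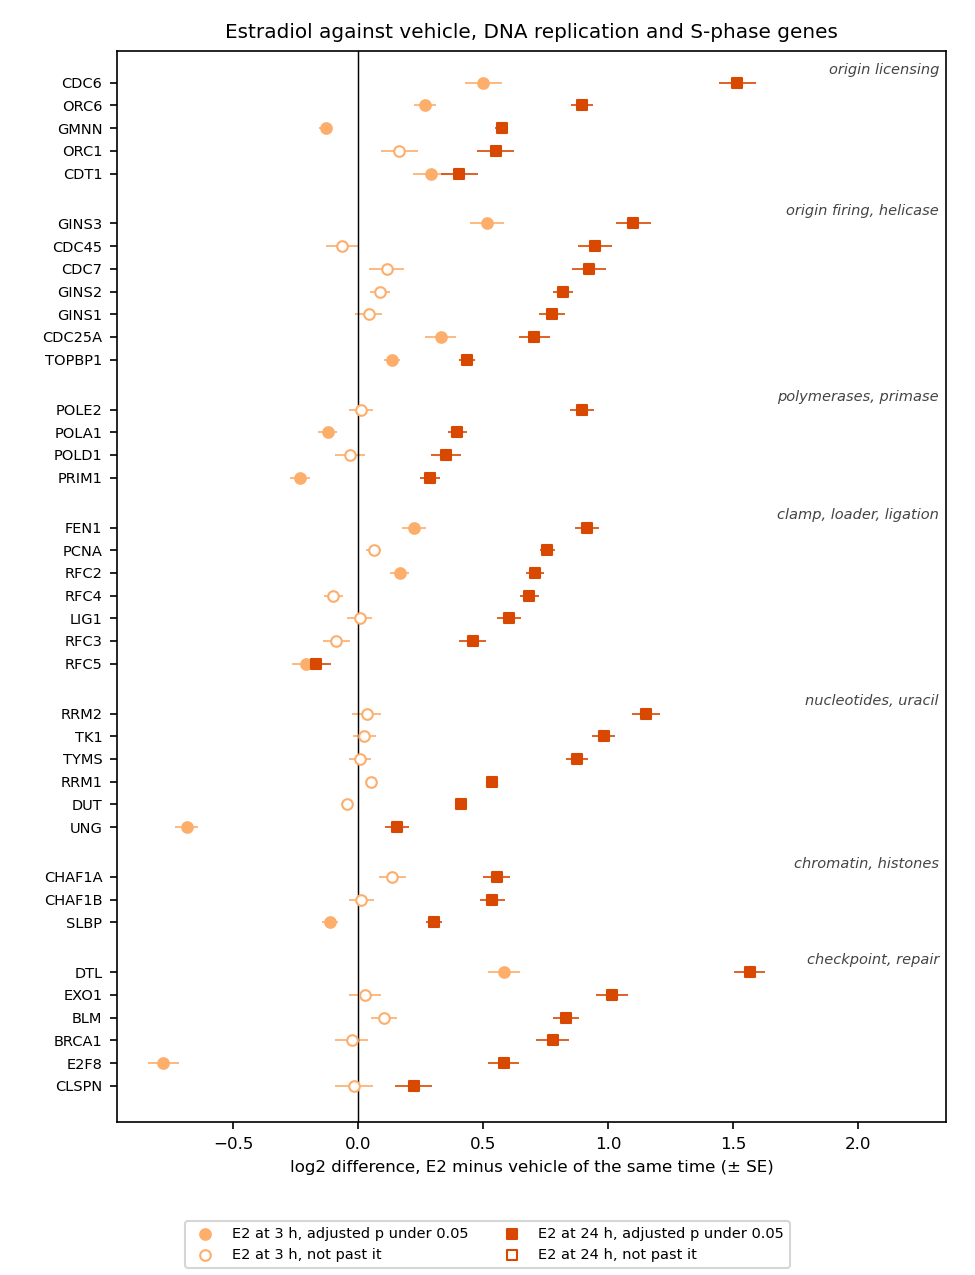
Difference between E2 and vehicle of the same time on the log2 scale (x axis) for the 38 measured genes, ordered by role (y axis), at 3 h (circles) and 24 h (squares). Points are limma estimates, bars are ± 1 SE, and filled symbols have an adjusted p under 0.05. The 24 h points lie right of 0 for 37 genes and left of it for RFC5, while the 3 h points lie on both sides.

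The origin licensing genes rose together at 24 h. All 5 were called higher, with a median difference of 0.57. CDC6 is the loader of the MCM helicase. Its level was 7.52, 7.51, 7.60 and 7.72 in the vehicle arrays at 24 h and 9.15, 9.09, 9.21 and 8.97 in the E2 arrays. Every E2 array lay above every vehicle array, with a difference of 1.52 ± 0.074, or 2.86-fold (adjusted p = 1.9e-12). At 3 h CDC6 read 7.93, 7.95, 7.95 and 7.78 with vehicle and 8.57, 8.30, 8.44 and 8.32 with E2. The groups did not overlap at 3 h either, and CDC6 was already higher by 0.50 ± 0.074 (adjusted p = 1.8e-05).

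Geminin, the product of GMNN, binds CDT1 and blocks a second round of licensing. GMNN read 9.65, 9.65, 9.67 and 9.67 with vehicle and 10.23, 10.24, 10.24 and 10.22 with E2 at 24 h. It rose by 0.57 ± 0.026 (adjusted p = 7.8e-13), and the arrays within each group lay close together. At 3 h GMNN moved the other way, from 9.69, 9.76, 9.67 and 9.67 with vehicle to 9.56, 9.56, 9.60 and 9.56 with E2. All 4 E2 arrays lay below all 4 vehicle arrays, and GMNN fell by 0.13 ± 0.026 (adjusted p = 0.0006). The vehicle arrays at 3 h lay above those at 0 h (9.53, 9.63, 9.58 and 9.56), and the E2 arrays at 3 h lay among them.

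The other licensing genes are ORC1 and ORC6, subunits of the origin recognition complex, and CDT1, the partner of CDC6. ORC6 rose by 0.89 ± 0.044 at 24 h and by 0.27 ± 0.044 at 3 h. CDT1 rose by 0.41 ± 0.075 at 24 h and 0.29 ± 0.075 at 3 h, and the difference between these was 0.11 ± 0.11 and was not called (adjusted p = 0.46). ORC1 rose by 0.55 ± 0.074 at 24 h, but its mean was dim in every group except E2 at 24 h, so the size of that change is less certain. At 3 h ORC1 differed by 0.16 ± 0.074 (adjusted p = 0.11).

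All 7 genes of origin firing and the helicase were higher with E2 at 24 h, with a median of 0.82, and 6 of them rose at least 1.5-fold. GINS3, a subunit of the GINS complex, read 6.68, 6.84, 6.67 and 6.79 with vehicle and 7.94, 7.73, 7.85 and 7.86 with E2. These groups were far apart, with a difference of 1.10 ± 0.069, or 2.14-fold (adjusted p = 9.2e-11). At 3 h GINS3 read 6.90, 6.84, 6.84 and 6.88 with vehicle and 7.42, 7.35, 7.47 and 7.29 with E2. Here too there was no overlap, and GINS3 rose by 0.52 ± 0.069 (adjusted p = 5.4e-06).

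GINS2, a subunit of the same complex, read 8.40, 8.48, 8.50 and 8.54 with vehicle and 9.33, 9.33, 9.27 and 9.27 with E2 at 24 h. It rose by 0.82 ± 0.04 (adjusted p = 2.2e-12). At 3 h GINS2 read 8.83, 8.77, 8.78 and 8.84 with vehicle and 8.90, 8.94, 8.92 and 8.82 with E2. These arrays overlapped and the difference of 0.09 ± 0.04 was not called (adjusted p = 0.11). It was called with centred arrays (adjusted p = 0.036), with array weights (0.039) and without E2 array D (0.045). GINS1 rose by 0.78 ± 0.053 at 24 h and differed by 0.04 ± 0.053 at 3 h (adjusted p = 0.63).

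CDC7 is the kinase that phosphorylates the loaded MCM ring. CDC7 read 6.54, 6.58, 6.66 and 6.45 with vehicle and 7.57, 7.52, 7.45 and 7.38 with E2 at 24 h. It rose by 0.92 ± 0.069, or 1.90-fold (adjusted p = 1.3e-09), and at 3 h its difference of 0.11 ± 0.069 was not called (adjusted p = 0.26). CDC45, the helicase cofactor, rose by 0.95 ± 0.067 at 24 h and differed by -0.06 ± 0.067 at 3 h (adjusted p = 0.55). CDC25A, the phosphatase that activates CDK2, rose by 0.70 ± 0.062 and by 0.33 ± 0.062 at 24 h and 3 h. Its other probe set rose by 0.27 ± 0.073 at 24 h and differed by 0.03 ± 0.073 at 3 h, which was not called. TOPBP1, a scaffold of firing and of checkpoint signalling, rose by 0.43 ± 0.032 and by 0.13 ± 0.032.

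The 4 polymerase and primase genes were also all higher at 24 h, with a median of 0.38, and 1 of them (POLE2) rose at least 1.5-fold. POLE2, the second subunit of polymerase epsilon, read 8.43, 8.45, 8.50 and 8.44 with vehicle and 9.37, 9.34, 9.40 and 9.30 with E2 at 24 h. It rose by 0.90 ± 0.047, or 1.86-fold (adjusted p = 5.7e-12). At 3 h POLE2 read 8.48, 8.54, 8.48 and 8.48 with vehicle and 8.55, 8.55, 8.58 and 8.35 with E2, overlapping groups with a difference of 0.01 ± 0.047 (adjusted p = 0.9). Polymerase alpha and primase together make the short primers from which each strand is extended, and the genes of their catalytic subunits were called lower at 3 h.

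POLA1, the catalytic subunit of polymerase alpha, read 8.85, 8.85, 8.82 and 8.87 with vehicle and 8.79, 8.74, 8.73 and 8.63 with E2 at 3 h. All E2 arrays lay below the vehicle arrays and POLA1 fell by 0.12 ± 0.039 (adjusted p = 0.022). The call was lost without vehicle array D (adjusted p = 0.056) and without E2 array D (0.087). At 24 h POLA1 read 9.13, 9.08, 9.20 and 9.22 with vehicle and 9.59, 9.59, 9.54 and 9.51 with E2, a rise of 0.40 ± 0.039 (adjusted p = 7.1e-08). PRIM1, the catalytic primase subunit, read 9.54, 9.49, 9.51 and 9.46 with vehicle and 9.25, 9.35, 9.29 and 9.15 with E2 at 3 h. It fell by 0.23 ± 0.04 with no overlap (adjusted p = 8.4e-05). At 24 h PRIM1 read 9.67, 9.79, 9.80 and 9.74 with vehicle and 10.01, 10.03, 10.10 and 10.01 with E2. That is a rise of 0.29 ± 0.04 (adjusted p = 5.4e-06). Of their partner subunits, which are outside the set and are named here after their values were seen, POLA2 differed by -0.16 ± 0.046 (adjusted p = 0.011) and PRIM2 by -0.05 ± 0.065 (adjusted p = 0.63) at 3 h. POLD1, the catalytic subunit of polymerase delta, rose by 0.35 ± 0.06 at 24 h and differed by -0.03 ± 0.06 at 3 h (adjusted p = 0.76).

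Of the 7 clamp, loader and ligation genes 6 were higher at 24 h and RFC5 was lower, with a median of 0.68. PCNA is the sliding clamp that holds polymerases on DNA. PCNA read 11.99, 11.97, 11.97 and 11.96 with vehicle and 12.73, 12.71, 12.73 and 12.75 with E2 at 24 h. It rose by 0.76 ± 0.031, or 1.69-fold (adjusted p = 1.8e-13), which is many times the spread within either group. At 3 h PCNA read 12.08, 12.01, 11.97 and 11.96 with vehicle and 12.06, 12.06, 12.06 and 12.09 with E2, and the difference of 0.06 ± 0.031 was not called (adjusted p = 0.16). Without vehicle array A it was called (0.09, adjusted p = 0.044).

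RFC2, RFC3, RFC4 and RFC5 encode small subunits of the clamp loader. RFC2 read 8.79, 8.75, 8.82 and 8.86 with vehicle and 9.54, 9.52, 9.55 and 9.45 with E2 at 24 h, a rise of 0.71 ± 0.037 (adjusted p = 5.9e-12). At 3 h RFC2 read 8.94, 8.92, 8.94 and 8.92 with vehicle and 9.17, 9.14, 9.01 and 9.06 with E2. All E2 arrays lay above the vehicle arrays and the rise was 0.17 ± 0.037 (adjusted p = 0.0014). RFC4 rose by 0.68 ± 0.039 and RFC3 by 0.46 ± 0.054 at 24 h, and at 3 h they differed by -0.10 ± 0.039 (adjusted p = 0.06) and -0.09 ± 0.054 (adjusted p = 0.26). The other RFC3 probe set rose by 0.52 ± 0.046 at 24 h. At 3 h it was called lower, by 0.17 ± 0.046 (limma over all single-symbol probe sets, adjusted p = 0.0062). FEN1, which trims the flaps of Okazaki fragments, rose by 0.91 ± 0.048 at 24 h and 0.22 ± 0.048 at 3 h. LIG1, which seals them, rose by 0.60 ± 0.049 at 24 h and differed by 0.01 ± 0.049 at 3 h (adjusted p = 0.96).

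RFC5 is the 1 gene of the set that was called lower at 24 h, and its probe sets disagreed. The probe set chosen by its mean read 11.05, 11.02, 10.72 and 10.82 with vehicle and 10.73, 10.72, 10.81 and 10.68 with E2 at 24 h. Vehicle arrays A and B lay well above every E2 array, D lay just above the highest of them, and C lay among them. RFC5 fell by 0.17 ± 0.059 (adjusted p = 0.024). Without vehicle array A the adjusted p was 0.1, without vehicle array B 0.095, without E2 array B 0.052 and without E2 array D 0.069. It was 0.079 with centred arrays and 0.095 in a fit of the 24 h arrays alone. At 3 h the same probe set read 10.98, 11.15, 11.05 and 11.12 with vehicle and 10.81, 10.89, 10.86 and 10.90 with E2, without overlap, and fell by 0.21 ± 0.059 (adjusted p = 0.0093).

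The other RFC5 probe sets gave the opposite direction. The second probe set read 9.44, 9.50, 9.53 and 9.50 with vehicle and 10.17, 10.26, 10.19 and 10.18 with E2 at 24 h, a rise of 0.71 ± 0.040. The third probe set read 7.90, 7.88, 7.96 and 7.99 with vehicle and 8.77, 8.69, 8.69 and 8.77 with E2, a rise of 0.80 ± 0.042. In both, every E2 array lay above every vehicle array. At 3 h these probe sets rose by 0.21 ± 0.040 and 0.19 ± 0.042. The mean of the 3 probe sets was higher by 0.44 at 24 h and by 0.063 at 3 h, so the direction for RFC5 depends on the probe set. Among the 38 genes 13 had several probe sets, and of all 54 probe sets of the set's genes 53 were higher at 24 h and 1, that of RFC5, was lower. The 53 include dim probe sets of TYMS, CLSPN and ORC1. The share over all probe sets was not counted, and over all genes 21.5% were called higher and 24.2% lower.

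**Figure D2:**
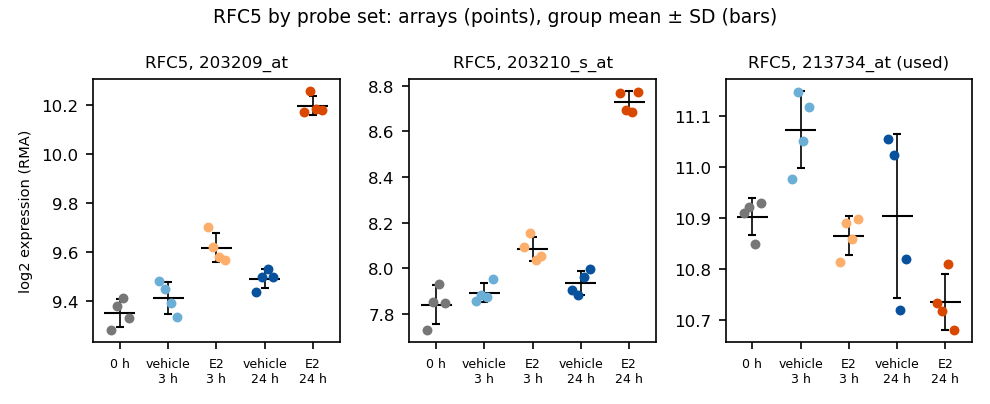
Log2 expression (y axis) of the 3 RFC5 probe sets in every array of the 5 groups (x axis); points are arrays, the long bar is the group mean and the whiskers are ± 1 SD (n = 4). The probe sets of the left and middle panels are highest with E2 at 24 h, while that of the right panel, the one used for the gene, is not.

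The 6 genes of nucleotide supply and uracil handling were all higher at 24 h, with a median of 0.71, and 0 were called higher at 3 h. RRM2, the regulatory subunit of ribonucleotide reductase, read 10.15, 10.28, 10.32 and 10.32 with vehicle and 11.40, 11.42, 11.49 and 11.38 with E2 at 24 h. It rose by 1.15 ± 0.057, or 2.22-fold (adjusted p = 2.7e-12). At 3 h RRM2 read 9.70, 9.76, 9.68 and 9.61 with vehicle and 9.78, 9.68, 9.74 and 9.68 with E2, overlapping groups with a difference of 0.03 ± 0.057 (adjusted p = 0.73). RRM1, the large subunit, read 11.17, 11.16, 11.15 and 11.22 with vehicle and 11.71, 11.73, 11.71 and 11.70 with E2 at 24 h. It rose by 0.54 ± 0.024 (adjusted p = 5.5e-13). At 3 h RRM1 read 10.98, 11.00, 10.97 and 10.98 with vehicle and 11.04, 11.02, 11.05 and 11.03 with E2. The arrays did not overlap, yet the difference of 0.05 ± 0.024 was not called (adjusted p = 0.11), and with centred arrays it was (adjusted p = 0.045).

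TYMS makes thymidylate from deoxyuridylate. TYMS read 10.28, 10.39, 10.42 and 10.43 with vehicle and 11.20, 11.26, 11.30 and 11.25 with E2 at 24 h, a rise of 0.87 ± 0.044 (adjusted p = 3.2e-12). At 3 h it differed by 0.01 ± 0.044 (adjusted p = 0.93). The other TYMS probe set, which was dim (mean 4.84), rose by 0.15 ± 0.058 at 24 h, and the mean of both probe sets rose by 0.51. TK1, the thymidine salvage kinase, read 7.46, 7.46, 7.53 and 7.51 with vehicle and 8.55, 8.50, 8.40 and 8.43 with E2 at 24 h. It rose by 0.98 ± 0.047, or 1.98-fold (adjusted p = 1.4e-12), and differed by 0.02 ± 0.047 at 3 h (adjusted p = 0.77). DUT, which removes deoxyuridine triphosphate, rose by 0.41 ± 0.023 at 24 h and differed by -0.05 ± 0.023 at 3 h (adjusted p = 0.15).

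UNG, which cuts uracil out of DNA, was the 1 gene of this group called lower at 3 h. At 3 h UNG read 10.53, 10.45, 10.43 and 10.39 with vehicle and 9.87, 9.81, 9.74 and 9.62 with E2. All 4 E2 arrays were far below the vehicle arrays, and UNG fell by 0.69 ± 0.047, a 1.61-fold decrease (adjusted p = 3.8e-10). At 24 h UNG read 10.37, 10.30, 10.28 and 10.35 with vehicle and 10.52, 10.49, 10.49 and 10.41 with E2. It was then higher with E2 by 0.15 ± 0.047 (adjusted p = 0.011) and the groups did not overlap. The difference between the 24 h and 3 h effects was 0.84 ± 0.066 (adjusted p = 5.5e-09).

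The 3 measured genes of chromatin assembly and histone messages rose at 24 h, with a median of 0.54, and none of them reached 1.5-fold. CHAF1A and CHAF1B are subunits of CAF-1, which deposits histones behind the fork. CHAF1A read 7.50, 7.46, 7.49 and 7.48 with vehicle and 8.03, 7.88, 8.21 and 8.03 with E2 at 24 h, a rise of 0.55 ± 0.054 (adjusted p = 6.2e-08). At 3 h it differed by 0.14 ± 0.054 (adjusted p = 0.065), and the mean of its probe sets was called at that time (0.14, adjusted p = 0.0031), as was the difference with centred arrays (0.039), without dim genes (0.046), with array weights (0.029) and without E2 array D (0.018). CHAF1B read 6.95, 6.99, 6.95 and 7.06 with vehicle and 7.59, 7.53, 7.50 and 7.46 with E2 at 24 h, a rise of 0.54 ± 0.049 (adjusted p = 2e-08), and at 3 h it differed by 0.01 ± 0.049 (adjusted p = 0.89). SLBP, which binds the stem-loop of histone messages, rose by 0.30 ± 0.031 at 24 h and fell by 0.11 ± 0.031 at 3 h (adjusted p = 0.0077).

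The 6 genes grouped under checkpoint and repair, with the transcription factor gene E2F8 among them, were all higher at 24 h, with a median of 0.80. Both extremes of the set at 3 h were in this group, DTL (0.58) and E2F8 (-0.78). DTL is the receptor of a ubiquitin ligase that destroys CDT1 on replicating DNA. DTL read 8.70, 8.79, 8.83 and 8.93 with vehicle and 10.42, 10.35, 10.40 and 10.34 with E2 at 24 h. Its rise of 1.57 ± 0.063, or 2.96-fold, was the largest among the 38 genes (adjusted p = 1.2e-13). At 3 h DTL read 8.97, 8.90, 8.82 and 8.75 with vehicle and 9.55, 9.55, 9.40 and 9.28 with E2. The groups did not overlap and DTL rose by 0.58 ± 0.063 (adjusted p = 3.2e-07), again the largest rise among the members.

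E2F8 encodes an atypical E2F factor that represses E2F target genes. E2F8 read 8.99, 8.93, 9.02 and 8.86 with vehicle and 8.22, 8.13, 8.29 and 8.04 with E2 at 3 h. All E2 arrays lay below the vehicle arrays, and E2F8 fell by 0.78 ± 0.062, a 1.72-fold decrease (adjusted p = 3.6e-09). At 24 h E2F8 read 9.31, 9.29, 9.31 and 9.20 with vehicle and 9.84, 9.80, 9.98 and 9.82 with E2. It was then higher by 0.58 ± 0.062 (adjusted p = 1.8e-07). The change from the 3 h to the 24 h effect, 1.36 ± 0.087, was the largest in the set (adjusted p = 3.1e-10).

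EXO1, a nuclease of mismatch repair and end resection, read 7.76, 7.81, 7.94 and 8.0 with vehicle and 8.99, 8.88, 8.79 and 8.91 with E2 at 24 h. It rose by 1.02 ± 0.065, or 2.02-fold (adjusted p = 1.2e-10), and differed by 0.03 ± 0.065 at 3 h (adjusted p = 0.82). BLM, a helicase of recombination, read 6.97, 7.02, 7.06 and 6.99 with vehicle and 7.90, 7.86, 7.76 and 7.83 with E2 at 24 h, a rise of 0.83 ± 0.052 (adjusted p = 9.6e-11). At 3 h BLM differed by 0.10 ± 0.052 (adjusted p = 0.16). BRCA1, which acts in homologous recombination, rose by 0.78 ± 0.067 at 24 h and differed by -0.03 ± 0.067 at 3 h (adjusted p = 0.83). CLSPN encodes claspin, the adaptor for CHK1. Its rise of 0.22 ± 0.075 at 24 h (adjusted p = 0.021) is the least secure of the increases, since the probe set was dim in every group and the arrays overlapped.

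**Figure D3:**
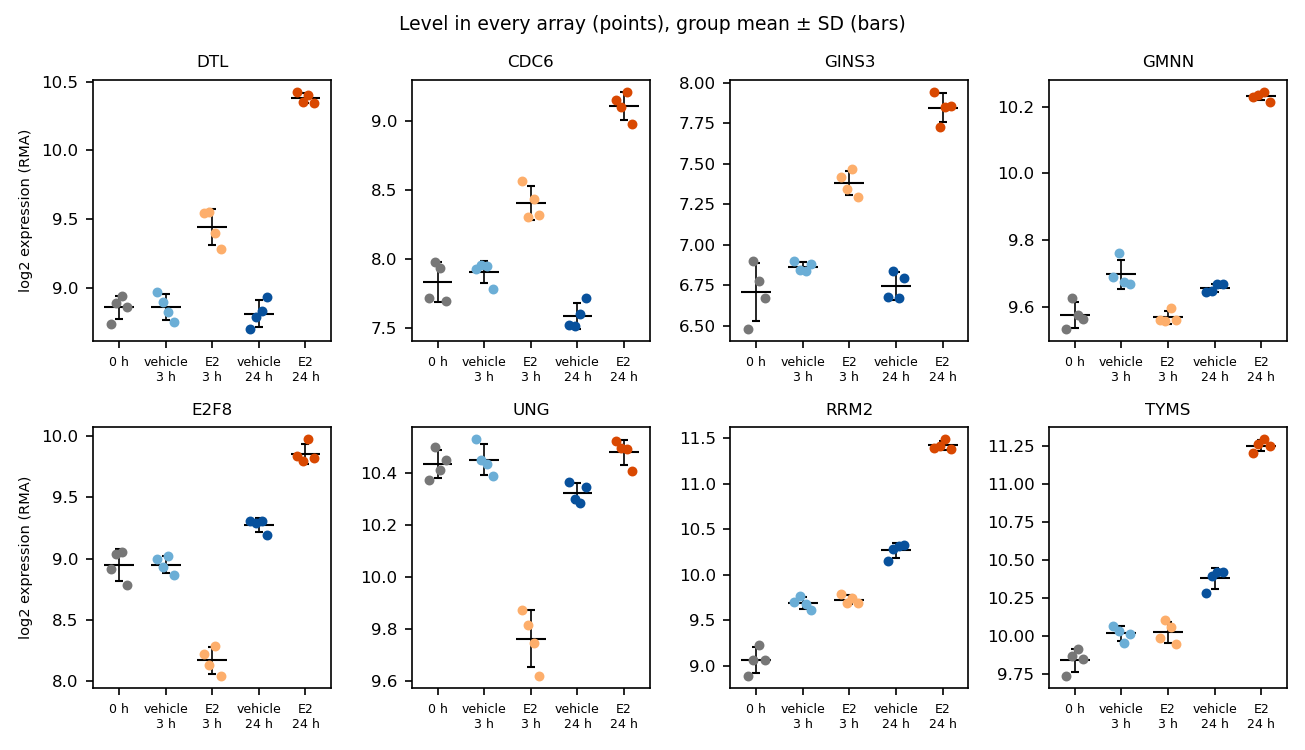
Log2 expression (y axis, a separate scale in each panel) in every array of the 5 groups (x axis) for 8 members; points are arrays, the long bar is the group mean and the whiskers are ± 1 SD (n = 4). DTL, CDC6 and GINS3 are higher with E2 at 3 h and 24 h, GMNN, E2F8 and UNG are lower at 3 h and higher at 24 h, and RRM2 and TYMS are also higher in vehicle at 24 h than at 0 h.

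Without E2, nucleotide enzymes were 4 of the 8 genes that rose by 24 h. In vehicle at 24 h against the 0 h baseline 8 of the 38 genes were higher, 1 was lower and 29 were not called, and the median was 0.02. Over all genes 7.55% were called higher (903) and 4.37% lower (523), a split that centring of each array turned to 806 and 712. Of the 6 nucleotide and uracil genes 4 were higher (RRM2, TYMS, RRM1 and TK1), and the others were EXO1, E2F8, RFC3 and GMNN. Arrays of vehicle at 24 h lay wholly above baseline in 9 members and wholly below in 1, against 11.5% and 8.22% of all genes. An increase of at least 1.5-fold was called in RRM2 alone among the members, and in 0.242% of all genes. The ACTB control was 0.456 to 0.479 at baseline and 0.358 to 0.435 in vehicle at 24 h. Its part in the comparisons with baseline was not tested.

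RRM2 had the largest increase of all 11963 genes in vehicle at 24 h. It read 8.88, 9.06, 9.23 and 9.06 at baseline and 10.15, 10.28, 10.32 and 10.32 in vehicle at 24 h. These groups did not overlap, and the rise was 1.21 ± 0.057, or 2.32-fold (adjusted p = 5.6e-11). TYMS read 9.73, 9.87, 9.92 and 9.85 at baseline and 10.28, 10.39, 10.42 and 10.43 in vehicle at 24 h, a rise of 0.54 ± 0.044 (adjusted p = 9.9e-08). EXO1 rose by 0.33 ± 0.065, E2F8 by 0.33 ± 0.062, RRM1 by 0.29 ± 0.024, TK1 by 0.26 ± 0.047, RFC3 by 0.26 ± 0.054 and GMNN by 0.08 ± 0.026, the last close to the threshold (adjusted p = 0.048). CDC6 was the 1 gene called lower, from 7.72, 7.98, 7.94 and 7.70 at baseline to 7.52, 7.51, 7.60 and 7.72. The groups overlapped and CDC6 fell by 0.24 ± 0.074 (adjusted p = 0.036). The count of genes lower was 0 without baseline array B or C or without vehicle array A, B or C, and 2 without baseline array A or vehicle array D.

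In vehicle at 3 h 13 members were higher than at baseline, 3 were lower and 22 were not called, with a median of 0.06. Over all genes 9.95% were called higher and 10.1% lower. Arrays lay wholly above baseline in 11 members and wholly below in 2, against 12.1% and 13.3% of all genes, and RRM2 was the 1 member called at least 1.5-fold higher, as were 0.811% of all genes. Without baseline array A, which stood lowest, 7 members were higher and 4 lower. RRM2 read 9.70, 9.76, 9.68 and 9.61 in vehicle at 3 h, all above its baseline arrays, a rise of 0.63 ± 0.057 (adjusted p = 1.7e-07). EXO1 read 7.45, 7.61, 7.71 and 7.42 at baseline and 7.97, 7.91, 7.85 and 8.01 in vehicle at 3 h. It rose by 0.39 ± 0.065 without overlap (adjusted p = 0.00018). POLA1 read 9.08, 9.10, 9.10 and 8.97 at baseline and 8.85, 8.85, 8.82 and 8.87 at 3 h, and fell by 0.22 ± 0.039 (adjusted p = 0.00045). PRIM1 fell by 0.17 ± 0.04 (adjusted p = 0.004), so both genes were also lower in vehicle at 3 h. CDC7 read 6.47, 6.58, 6.86 and 6.56 at baseline and 6.37, 6.36, 6.40 and 6.51 at 3 h, overlapping groups with a fall of 0.21 ± 0.069 (adjusted p = 0.038). The ACTB control was 0.291 to 0.339 in vehicle at 3 h, wholly below baseline, and its part here was not tested.

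Against the same baseline, 35 members were higher with E2 at 24 h and 1 (RFC5) was lower, while UNG (0.05 ± 0.047) and CLSPN (0.14 ± 0.075) were not called. These groups differ in both E2 and time, which cannot be told apart in this comparison alone. The median was 0.71, and over all genes 19.2% were called higher and 22.4% lower. Arrays lay wholly above baseline in 35 members and wholly below in 1, against 18.7% and 22.1% of all genes, and 25 members were at least 1.5-fold higher, against 3.36%. RRM2 stood highest, at 2.36 ± 0.057 or 5.15-fold above baseline, followed by DTL at 1.52 ± 0.063 and TYMS at 1.41 ± 0.044. In vehicle at 24 h the same genes differed from baseline by 1.21 (RRM2), -0.05 (DTL, not called) and 0.54 (TYMS). Without baseline array A 35 members were higher and 0 lower, and the median was 0.67. The call for RFC5 in this comparison was also lost without baseline array B or D and without E2 array B or D. This comparison and the vehicle comparisons share the baseline arrays.

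**Figure D4:**
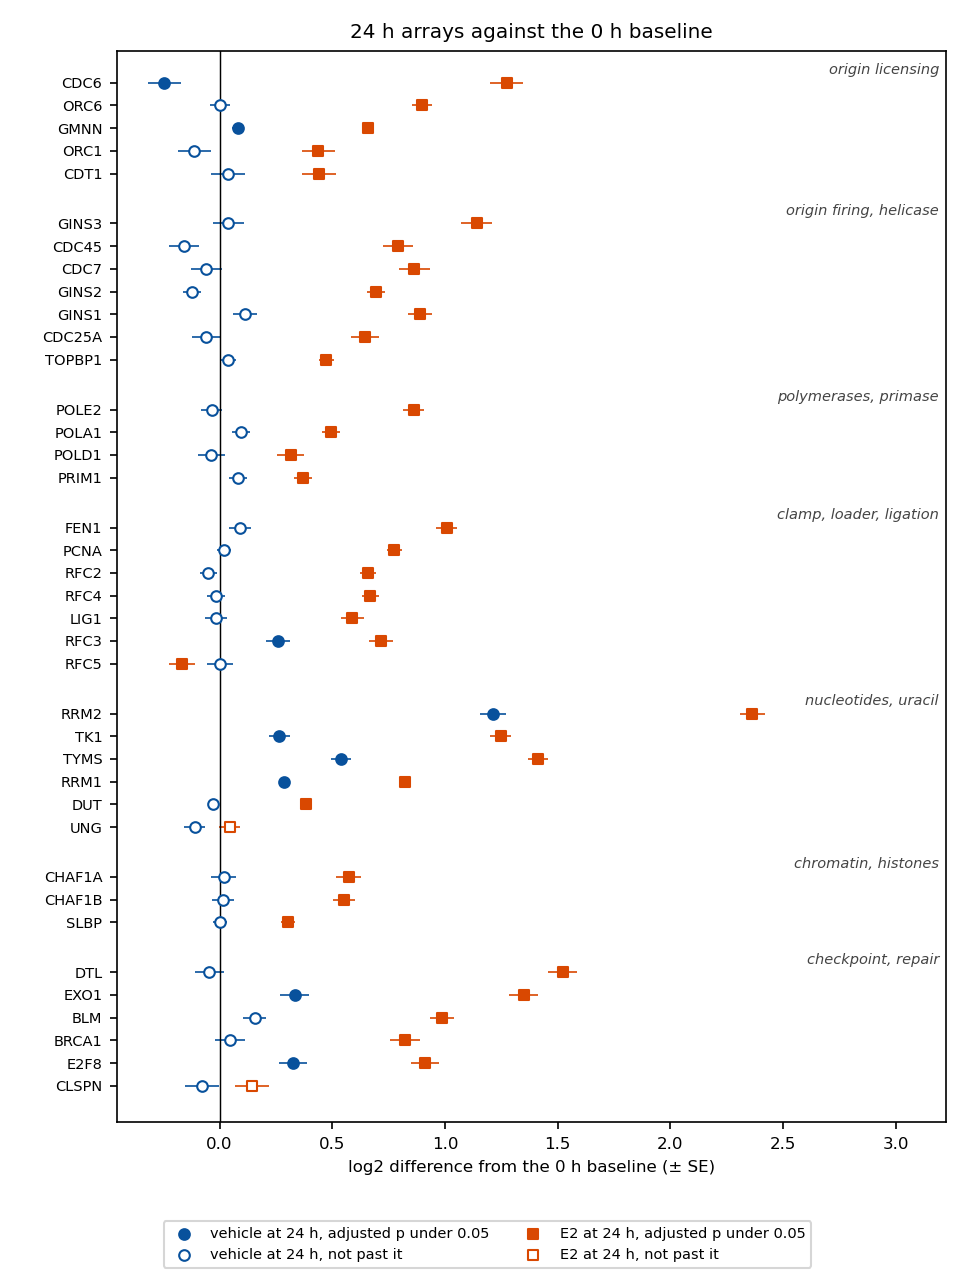
Difference from the 0 h baseline on the log2 scale (x axis) for the 38 measured genes by role (y axis), in vehicle at 24 h (circles) and E2 at 24 h (squares), which share the baseline arrays. Points are limma estimates, bars are ± 1 SE, and filled symbols have an adjusted p under 0.05. RRM2 stands apart in vehicle, at 1.21, and in E2, at 2.36.

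Replication genes that are not in the set also rose at 24 h. Of 51 listed, among them MCM subunits, other origin and polymerase subunits and repair factors, 44 were measured, 40 were higher with E2 and 0 lower. Over all genes 21.5% were called higher and 24.2% lower at 24 h. The median of the 44 genes was 0.65. The 4 not called, ORC3, ORC5, RFC1 and ASF1A, differed by 0.02, 0.08, 0.00 and -0.05, and they are named here after their values were seen. At 3 h 13 of the 44 were higher and 4 lower, with a median of 0.06, against 13.5% and 17.6% of all genes. GINS4, the remaining GINS subunit, read 8.31 to 8.47 with vehicle and 9.84 to 9.95 with E2 at 24 h and rose by 1.52 ± 0.047 (adjusted p = 2.5e-15). MCM10, a helicase factor, rose by 1.49 ± 0.047 at 24 h and by 0.35 ± 0.047 at 3 h. MCM6 rose by 1.01 ± 0.033 at 24 h and fell by 0.16 ± 0.033 in vehicle at 24 h against baseline (adjusted p = 0.0031).

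Another list held 16 measured genes of the G1/S transition. Besides cyclins, kinases and E2F factors it held RB1, RBL1, TFDP1 and the kinase inhibitor genes CDKN1A and CDKN1B. Of the 16, 10 were higher at 24 h, 3 were lower and 3 were not called, with a median of 0.19. Over all genes 21.5% were called higher and 24.2% lower. CCNE2, which activates CDK2, rose by 1.04 ± 0.044 at 24 h and 0.12 ± 0.044 at 3 h, and CDK2 rose by 0.87 ± 0.043 and 0.27 ± 0.043. CCND1, the D-type cyclin that acts earlier in G1, rose by 1.51 ± 0.055 at 3 h and by 0.72 ± 0.055 at 24 h. Its effect was thus smaller at 24 h, by 0.79 ± 0.078 (adjusted p = 1.2e-07), while for 35 of the 38 replication genes the signed difference between the effects was above 0.

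The G2/M genes were higher at 24 h in 16 of 18, against 21.5% of all genes, with a median of 0.26. In vehicle at 24 h against baseline 16 of 18 were also higher, with a median of 0.45, where the replication genes had 8 of 38 and a median of 0.02. The difference between these lists was not tested, and over all genes 7.55% were called higher in that vehicle comparison. PRC1, of the central spindle, rose by 0.64 ± 0.036 with E2 at 24 h and by 0.42 ± 0.036 in vehicle at 24 h. CDK1, the mitotic kinase, rose by 0.56 ± 0.037 and 0.49 ± 0.037, and the spindle protein NUSAP1 by 0.36 ± 0.037 and 0.69 ± 0.037. Over the arrays, the replication genes had a median deviation from each gene's mean between 0.50 and 0.55 in the 4 arrays of E2 at 24 h and between -0.28 and -0.07 in the other 16.

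**Figure D5:**
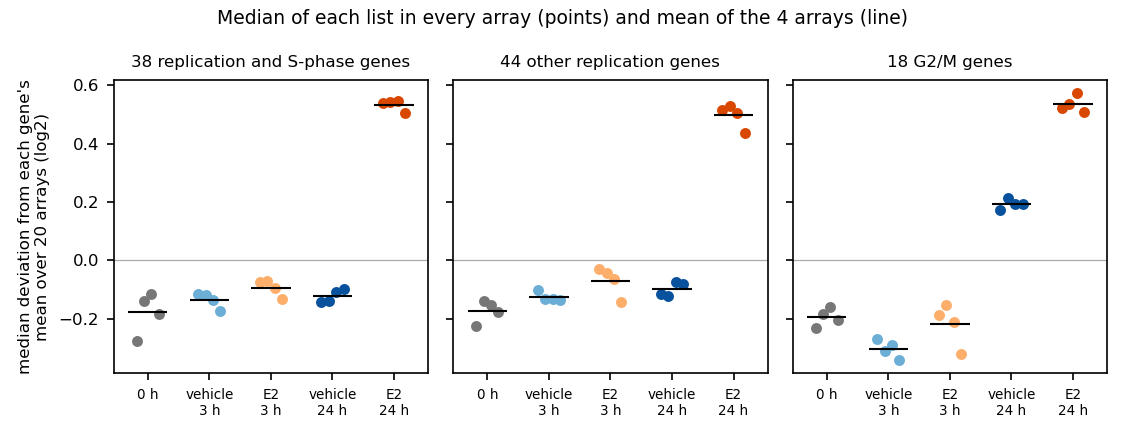
Median over the genes of a list of the deviation from each gene's mean over 20 arrays (y axis, log2) in every array of the 5 groups (x axis), for the 38 replication and S-phase genes, 44 other replication genes and 18 G2/M genes; lines are means of 4 arrays. The 4 arrays of E2 at 24 h are highest in all panels, and the vehicle arrays at 24 h lie above 0 in the G2/M panel alone.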

How the data were processed

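RNA was measured on 20 arrays in 5 groups of 4. Per the submitters' processing notes the authors used RMA in the affy package, and the deposited log2 values have 1 row per probe set. No source used here gives versions. RMA makes the distributions of all arrays alike, so a change in total RNA per cell would not show.

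The table held 22277 probe sets. Without 62 controls, 19064 had 1 gene symbol in the platform annotation, 1043 several and 2108 none; Entrez numbers of 19052 matched RefSeq and 0 symbols changed. Of 11963 genes 4310 had over 1 probe set. No filter on dim genes was applied.

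limma 3.58.1 in R 4.3.3 (lmFit, eBayes, two-sided) fitted all 20 arrays with a mean per group (15 residual degrees of freedom), and p-values were adjusted across all 11963 genes by the Benjamini-Hochberg method, with a threshold of 0.05. Calls and errors for a gene's other probe sets come from the same kind of fit over the 19064 single-symbol probe sets, with p-values adjusted across those. Values after ± are standard errors. The fit was tested on simulated data. Columns of other samples numbered 0, and 0 arrays were identical.

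The members and the lists were chosen with earlier results of these data known. Values in every array are given for the 2 members of each role with the smallest p at 24 h, members that fell or did not pass then, the 3 largest increases and decreases at 3 h, and the 2 largest in each direction in the vehicle comparisons; from the other lists the 3 with the smallest p at 24 h are named. For some of these genes and comparisons only the difference is printed.

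Alternatives covered the replicate block, the arrays in the fit, centring, dim genes, the probe set, the variance prior, array weights, thresholds, size and single arrays.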

Additional observations from a re-analysis of the deposited data

Results flagged for a closer look

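The E2 effect at 24 h differed from that at 3 h in 35 members by a test of the difference itself (limma, adjusted p under 0.05), and in all of them the 24 h effect minus the 3 h effect was above 0. In UNG and E2F8 the 3 h effect was a decrease larger in size than the later increase. In origin licensing it was 1.02 (CDC6), 0.70 (GMNN), 0.63 (ORC6) and 0.39 (ORC1) on the log2 scale. In origin firing and the helicase it was 1.01 (CDC45), 0.81 (CDC7), 0.74 (GINS1), 0.73 (GINS2), 0.58 (GINS3), 0.37 (CDC25A) and 0.30 (TOPBP1) on the log2 scale. Among polymerases and primase it was 0.88 (POLE2), 0.52 (PRIM1), 0.52 (POLA1) and 0.39 (POLD1) on the log2 scale. Among clamp, loader and ligation genes it was 0.78 (RFC4), 0.70 (PCNA), 0.69 (FEN1), 0.60 (LIG1), 0.55 (RFC3) and 0.54 (RFC2) on the log2 scale. For nucleotide and uracil enzymes it was 1.12 (RRM2), 0.96 (TK1), 0.87 (TYMS), 0.84 (UNG), 0.48 (RRM1) and 0.46 (DUT) on the log2 scale. For chromatin and histone genes it was 0.52 (CHAF1B), 0.42 (CHAF1A) and 0.42 (SLBP) on the log2 scale. For genes grouped under checkpoint and repair it was 1.36 (E2F8), 0.99 (EXO1), 0.98 (DTL), 0.80 (BRCA1) and 0.73 (BLM) on the log2 scale. 

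Among 190 groups of 4 arrays, 10 held an array whose gap to the nearest other, as a part of the group's range, was over Dixon's critical value, where chance gives about 1 in 20 groups, or 9.5 here. They were CDC6 in vehicle at 3 h (array D, 7.78), GMNN in E2 at 3 h (C, 9.60), CDC25A at baseline (A, 7.41), PRIM1 in E2 at 24 h (C, 10.1) and POLE2 in vehicle at 3 h (B, 8.54). The others were POLE2 in E2 at 3 h (D, 8.35), PCNA in E2 at 3 h (D, 12.1), RRM1 at baseline (A, 10.8), CLSPN in vehicle at 24 h (B, 4.80) and E2F8 in vehicle at 24 h (D, 9.20). Baseline array A and E2 array D at 3 h appear 2 times each, and both are among the single arrays left out in turn.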

How the results depend on the processing

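At 24 h the count of members higher with E2 was 36 to 38 of 38 under the alternatives that kept all genes and set no size limit, 35 at a threshold of 0.01, 35 of 36 without dim genes, and 21 at 1.5-fold; leaving out single arrays gave 36 to 37. The count lower was 0 with the arrays of the groups compared alone, with centred arrays, with the mean of probe sets, at 0.01 and at 1.5-fold, and 0 to 1 without single arrays. At 3 h the counts at 1.5-fold were 0 higher and 2 lower. The difference between times had 21 members at 1.5-fold. For vehicle at 3 h 7 were higher at 0.01, and at 1.5-fold 1 was higher and 0 lower; single arrays gave 7 to 12 higher. For vehicle at 24 h 1 was higher at 1.5-fold, and the count lower was 0 with the groups compared alone, with probe sets other than _x_at and _s_at, at 0.01 and at 1.5-fold, 2 with centred arrays, without dim genes, with trend and robust, and with array weights, and 0 to 2 without single arrays. For E2 at 24 h against baseline the count lower was 0 with centred arrays, with the mean of probe sets, at 0.01 and at 1.5-fold, and 0 to 1 without single arrays. With the mean of probe sets RFC5 reversed to 0.44 at 24 h and 0.063 at 3 h, and RRM2 at 3 h to -0.025. Without single arrays 3 h differences that were not called spanned 0 for POLE2 (-0.012 to 0.063), TK1 (-0.015 to 0.052), CHAF1B (-0.018 to 0.043) and TYMS (-0.018 to 0.034). Where no value shows it, the cause was not tested.

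With the letters A to D as a replicate block the counts were 37 higher and 1 lower at 24 h, 9 and 7 at 3 h, 11 and 3 for vehicle at 3 h, 7 and 1 for vehicle at 24 h. Each gene's group mean was subtracted, and what remained was correlated between same-letter arrays of 2 groups. The correlation was over 0.1 in 6 of 40 pairs (-0.245 to 0.370), so the letters were not taken as pairs. It was highest between E2 at 3 h and E2 at 24 h, for array D (0.370) and array A (0.251).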

Other observations

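Probe sets of a gene agreed in direction at 24 h in 12 of the 13 members that had several, with RFC5 as the exception, but not always in size. GINS3 rose by 1.10 ± 0.069 on the probe set used and by 1.43 ± 0.085 on the other. BRCA1 rose by 0.78 ± 0.067 and by 0.50 ± 0.088. CDC25A rose by 0.70 ± 0.062 and by 0.27 ± 0.073. RRM2 rose by 1.15 ± 0.058 and by 0.93 ± 0.047.

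The octamers of the E2F type were also present in promoters of members with small E2 differences. The part of the octamers in the E2 differences was not tested. UNG, which rose by 0.15 at 24 h, has TTTGCCGC 63 bases before a start that lies 575 bases inside the annotated gene. DTL, which rose by 1.57, has TTTGGCGC 8 bases before its outer start, and CDC6, which rose by 1.52, has 0 of the 4 octamers in the 250 bases before its listed start.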
